A study of Arabidopsis thaliana with 18 samples.

Results

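Ethylene and a root bacterium are set side by side in this comparison of salt-grown Arabidopsis shoots: 3 libraries from plants supplied with the ethylene precursor ACC against 3 from plants colonised by SA187. These 6 libraries were taken by their labels from the 18 of the series, and all 27371 genes of the expression table were read. Every plant was Arabidopsis thaliana Col-0, was 21 days old and had spent its last 16 days on medium with 100 mM NaCl. The ACC group received 100 nM of the compound. SA187 is an Enterobacter strain described by the study as a root endophyte, and the shoots of the colonised plants were sequenced here. Whether bacteria were present in these shoots was not measured in these files. The other shoot groups, WT plants without bacterium or compound and plants given 100 nM of the keto acid KMBA (3 libraries each), are used to place the levels. ACC served the study as its positive control for ethylene. The question behind the comparison is how shoots of colonised plants differ from shoots given the precursor of the hormone. Whether the hormone itself differed was not measured in these files.

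Ethylene is made from methionine by way of ACC, which ACC oxidases turn into the gas. Its receptors at the endoplasmic reticulum, with the kinase CTR1, hold the pathway off until ethylene binds. EIN2 and the transcription factors EIN3 and EIL1 then switch on target genes, and among these are genes that damp the response, such as receptor genes and the F-box gene EBF2, whose product removes EIN3. Jasmonate is a lipid-derived hormone of wounding and defense, made through lipoxygenase, allene oxide synthase, allene oxide cyclase and OPR3, and restrained by JAZ repressors. Glucosinolates are sulfur-rich defense compounds of the cabbage family, and their last step of assembly uses the active sulfate donor made by the APS kinases.

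Expression is given as FPKM, fragments scaled to transcript length and library size, so the number of reads behind a value is unknown. Summed FPKM ran from 402442 to 446352 in the ACC and from 378067 to 457153 in the SA187 libraries, and replicates correlated across genes at r between 0.975 and 0.984 on the log2 scale. WT replicates stood further apart (r from 0.920 to 0.963), and their spread enters every test below. All SA187 libraries and ACC replicate 1 were sequenced in pool 1 on lane 8, whereas ACC replicates 2 and 3 were in pool 3 on lane 3. The compound and the pool therefore cannot be fully told apart, and values within pool 1 (ACC replicate 1 alone, assumed to vary like the other groups) stand beside the pooled ones. Leaf genes marked all 6 libraries as shoots: the 17 Rubisco and Calvin cycle genes summed to between 26032 and 38296 FPKM, and none of 8 flower markers reached 1 FPKM in all 3 libraries of either group. Of 12 root markers, PYK10 was above that level, and their sum ran from 4.64 to 6.70 FPKM in ACC and from 2.29 to 3.41 FPKM in SA187 shoots, against 750.1 to 884.6 FPKM in roots of ACC plants. Fewer cells of a type and less RNA per cell cannot be told apart in such samples.

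In all, 279 of 15724 tested genes differed between ACC and SA187 shoots, 164 higher and 115 lower with ACC. These are 1.77% of the tested genes, 1.04% higher and 0.731% lower, the shares against which each list count below is to be read. A call needed an adjusted p below 0.05 (limma, Benjamini-Hochberg) together with a more than 2-fold difference in FPKM + 1. On the adjusted p alone 1446 genes (9.2%) passed, 6.19% higher and 3.01% lower. The 3 ACC and 3 SA187 libraries did not overlap in 278 of the 279 called genes, against 36.6% of all tested genes. The balance of higher against lower depends on the scaling: the median log2 difference over all genes was 0.09 on the FPKM as deposited, and after median-ratio scaling, which moved that median to -0.01, 122 genes were higher and 168 lower. Within pool 1, 60 genes were higher and 82 lower, 98 of the 279 were called again, and none of the 263 that could be tested there changed sign. With the pool as a term in the model, 102 were higher and 140 lower, with 180 of the 279 kept. Single libraries weighed on the total, which was 172 (94 higher) without SA187 replicate 1, and 103 genes were higher without ACC replicate 1.

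**Figure D1:**
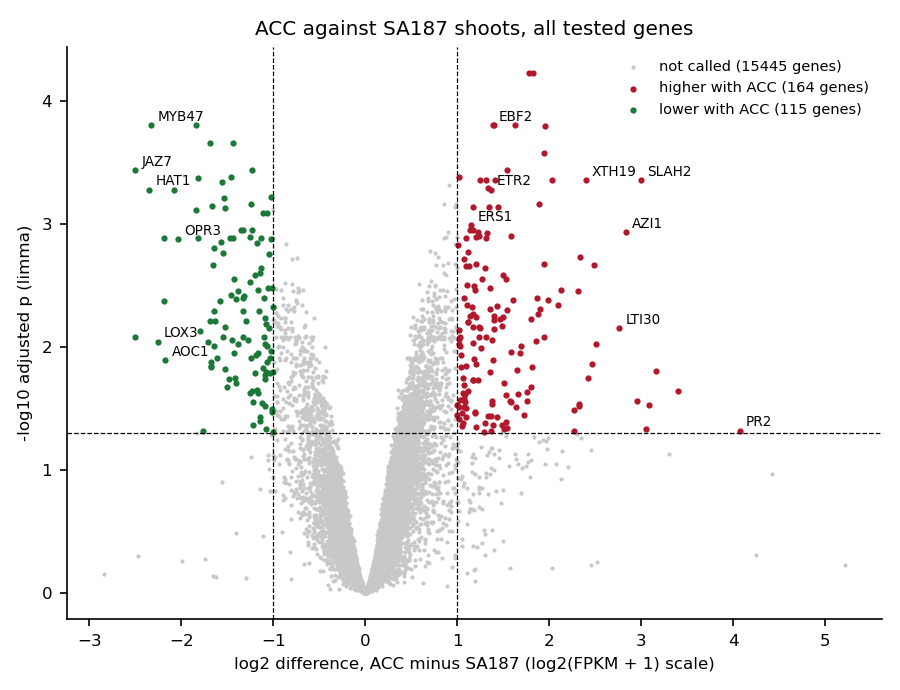
Each point is 1 of 15724 tested genes, with the log2 difference between ACC and SA187 shoots (3 libraries each) on the x axis and -log10 of the adjusted p on the y axis. Dashed lines mark the fold of 2 and the adjusted p of 0.05, red points are the 164 genes higher and green points the 115 genes lower with ACC, and labelled genes are described in the text.

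Among genes of ethylene perception and signaling, calls went in 1 direction. Of 17 tested genes of the receptor and signaling list 4 were higher with ACC and 0 lower, and 1 of the 4, ETR2, entered the test only through its 3 ACC libraries, as did 6 of the 164 higher genes. The adjusted p alone was passed by 8, ETR2 included and all higher, against the 6.19% of all genes. Of the 17 differences 16 were above 0, with a median of 0.50 on the log2 scale against 0.09 over all genes. After subtraction of the length and GC trend 13 were above 0 and 4 below (median 0.30, against -0.001 over all genes). Median-ratio scaling also gave 13 and 4 (median 0.38, against -0.01). EBF2 (AT5G25350) was at 19.1, 19.4 and 21.7 FPKM in SA187 replicates 1, 2 and 3 and at 48.9, 63.9 and 50.5 FPKM in ACC replicates 1, 2 and 3 (log2 1.39, SE 0.12, adjusted p = 0.000157, and in pool 1 1.25, adjusted p = 0.0181). The groups were well apart. The WT libraries at 19.1, 18.2 and 19.5 FPKM and the KMBA libraries at 23.5, 26.2 and 24.5 FPKM lay near the SA187 level. The receptor gene ERS1 (AT2G40940) was at 7.53, 6.74 and 9.14 FPKM with SA187 and 21.1, 18.4 and 16.2 FPKM with ACC (log2 1.15, SE 0.14, adjusted p = 0.00102, and in pool 1 1.34, adjusted p = 0.0275). Again the groups did not overlap, with WT at 9.52, 9.07 and 8.18 FPKM. ETR2 (AT3G23150), another receptor gene, was low in the other shoot groups, at 0.499, 0.420 and 0.435 FPKM with SA187, 0.250, 0.554 and 0.361 FPKM in WT and 0.459, 0.529 and 0.599 FPKM with KMBA. Its ACC libraries held 3.06, 3.49 and 1.88 FPKM, a mean 6.22-fold higher. Since only the ACC libraries brought it past the filter at 1 FPKM, it had to differ, and its values are given with no test.

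The remaining receptors did not move alike. ERS2 (AT1G04310) was at 1.37, 1.47 and 1.57 FPKM with SA187 and 3.59, 3.89 and 3.01 FPKM with ACC, a difference under 2-fold on the scale tested that passed the adjusted p (log2 0.86, SE 0.10, adjusted p = 0.000690, and in pool 1 0.89, adjusted p = 0.0332). The first receptor gene described, ETR1 (AT1G66340), was at 3.73, 3.93 and 4.64 FPKM and 4.93, 4.87 and 4.51 FPKM, and its libraries overlapped (log2 0.18, SE 0.11, adjusted p = 0.329). Among the transcription factors, EIL1 (AT2G27050) was at 39.7, 39.6 and 48.6 FPKM with SA187 and 69.3, 72.8 and 75.5 FPKM with ACC (log2 0.76, SE 0.11, adjusted p = 0.00311, and in pool 1 0.69, adjusted p = 0.144). EIN3 (AT3G20770) was at 48.5, 51.6 and 66.4 and 64.9, 67.1 and 76.1 FPKM with overlapping libraries (log2 0.33, SE 0.13, adjusted p = 0.129). Named after their values were seen, ARL (AT2G44080), an ARGOS-like gene whose family lowers ethylene sensitivity, was called higher (log2 1.20) and the kinase gene CTR1 (AT5G03730) passed the adjusted p with a log2 difference of 0.85. The number of called members was 2 within pool 1 and 2 without ACC replicate 1, and it stayed at 3 to 5 under the other alternatives.

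Of 9 tested ethylene synthesis genes 1 was called, ACS2 (AT1G01480), one of the enzymes that make ACC inside the plant. It was at 0.0773, 0.0370 and 0.0796 FPKM with SA187 and 1.57, 1.15 and 2.75 FPKM with ACC (log2 1.37, SE 0.36, adjusted p = 0.0364). WT spanned the same range at 0.815, 0.0390 and 2.65 FPKM, and the call was lost in 10 of 18 alternatives, among them those without ACC replicate 1 or any 1 SA187 library. ACS2 was under the level tested within pool 1. The list as a whole was not shifted, with 4 differences above 0 and 5 below. In the ethylene response list 2 of 17 genes were higher, the repressor gene ERF4 (AT3G15210) and the activator gene ORA59 (AT1G06160), and the list median was 0.00. ERF4 was at 10.3, 11.5 and 15.3 FPKM with SA187 and 30.4, 27.1 and 23.6 FPKM with ACC (log2 1.08, SE 0.17, adjusted p = 0.00399, and in pool 1 1.25, adjusted p = 0.0383). ORA59, which joins ethylene and jasmonate signals at defensin genes, was at 1.23, 0.378 and 0.797 FPKM and 3.03, 3.98 and 2.07 FPKM, with WT at 0.367, 0.364 and 0.558 FPKM (log2 1.16, SE 0.19, adjusted p = 0.00473). The list had 1 call with the pool as a term and without ACC replicate 1 or 2 or SA187 replicate 1 or 2.

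Jasmonate genes went the other way. Of 13 tested jasmonate synthesis genes 7 were lower with ACC and 0 higher, against 0.731% of all genes lower, and 12 of 13 differences were below 0 (median -1.01). OPR3 (AT2G06050), which reduces the precursor OPDA, was at 117, 103 and 128 FPKM in the SA187 libraries and 20.8, 39.3 and 25.1 FPKM in the ACC libraries, 4.09-fold lower by the means (log2 -2.04, SE 0.27, adjusted p = 0.00132, and in pool 1 -2.42, adjusted p = 0.0229). WT lay mostly between them at 49.4, 73.8 and 33.4 FPKM and KMBA nearer to SA187 at 86.7, 74.9 and 94.5 FPKM. The lipoxygenase gene LOX3 (AT1G17420), for the first step, was at 47.0, 46.3 and 57.3 FPKM with SA187 and 9.26, 13.3 and 7.28 FPKM with ACC (log2 -2.26, SE 0.43, adjusted p = 0.00901, and in pool 1 -2.31, adjusted p = 0.154). With KMBA it was at 53.7, 32.8 and 53.5 FPKM and in WT at 13.5, 30.0 and 5.50 FPKM. Thus the WT libraries overlapped the ACC range for this gene and stayed below the SA187 libraries.

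Other steps of the pathway differed in the same direction. LOX4 (AT1G72520) was at 35.5, 32.7 and 38.1 FPKM with SA187 and 11.5, 9.05 and 13.3 FPKM with ACC (log2 -1.58, SE 0.25, adjusted p = 0.00421, and in pool 1 -1.54, adjusted p = 0.117). AOS (AT5G42650), the allene oxide synthase gene, was abundant, at 386, 326 and 430.3 FPKM with SA187 and 97.6, 216 and 125 FPKM with ACC (log2 -1.45, SE 0.27, adjusted p = 0.00881, and in pool 1 -1.94, adjusted p = 0.0326). AOC1 (AT3G25760), an allene oxide cyclase gene, was at 252, 195 and 242 FPKM and 30.3, 100.1 and 40.4 FPKM (log2 -2.18, SE 0.45, adjusted p = 0.0127, and in pool 1 -2.87, adjusted p = 0.0505). In both AOS and AOC1, ACC replicate 2 was the highest of the ACC libraries and still below every SA187 library. OPCL1 (AT1G20510), a ligase of the later peroxisomal steps, was at 39.3, 37.4 and 48.7 FPKM with SA187 and 19.7, 17.9 and 15.3 FPKM with ACC (log2 -1.20, SE 0.17, adjusted p = 0.00257, and in pool 1 -1.04, adjusted p = 0.127). AOC2 (AT3G25770), named after its values were seen, completes the 7 (log2 -1.01), and since AOC1 and AOC2 are close neighbours and near copies, their separate levels are uncertain. Within pool 1 the members called were 3 and the median -1.04, and when 1 library was left out the members called were between 5 and 8.

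Of 19 tested jasmonate signaling and response genes 4 were lower, all of them JAZ repressor genes, and 1 was higher, with a median of -0.70. JAZ7 (AT2G34600) was at 30.5, 11.9 and 18.9 FPKM with SA187 and at 2.47, 2.41 and 2.77 FPKM with ACC, and the ACC libraries lay close together (log2 -2.50, SE 0.25, adjusted p = 0.000362, and in pool 1 -2.53, adjusted p = 0.0310). WT was at 34.0, 26.2 and 31.5 FPKM, overlapping the top of the SA187 range, and KMBA at 5.09, 6.58 and 6.18 FPKM, between ACC and SA187. JAZ6 (AT1G72450) was at 77.3, 58.8 and 64.5 FPKM with SA187, 17.5, 24.3 and 24.6 FPKM with ACC and 67.6, 79.5 and 64.1 FPKM in WT (log2 -1.56, SE 0.17, adjusted p = 0.000451, and in pool 1 -1.86, adjusted p = 0.0180). JAZ9 (AT1G70700) was at 25.5, 20.8 and 33.1 FPKM and 5.95, 11.2 and 7.13 FPKM, with WT at 10.9, 18.0 and 13.7 FPKM (log2 -1.61, SE 0.33, adjusted p = 0.0123, and in pool 1 -1.96, adjusted p = 0.0296). So WT overlapped SA187 for JAZ7 and JAZ6, whereas JAZ9 in WT lay below every SA187 library. CORI3 (AT4G23600), a coronatine-induced aminotransferase gene, was at 57.8, 53.4 and 48.0 FPKM with SA187 and 28.8, 26.3 and 35.6 FPKM with ACC, under 2-fold (log2 -0.80, SE 0.14, adjusted p = 0.00705, and in pool 1 -0.86, adjusted p = 0.0969). Named after their values were seen, JAZ2 was lower (log2 -1.01), the gene of the central activator MYC2 passed the adjusted p alone (log2 -0.96), and TAT3, an aminotransferase gene of the same list, was the member that was higher (log2 1.21), a call lost in 14 of 18 alternatives. The number of lower members ranged from 2 without ACC replicate 1 or SA187 replicate 1 to 6 with the pool as a term.

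**Figure D2:**
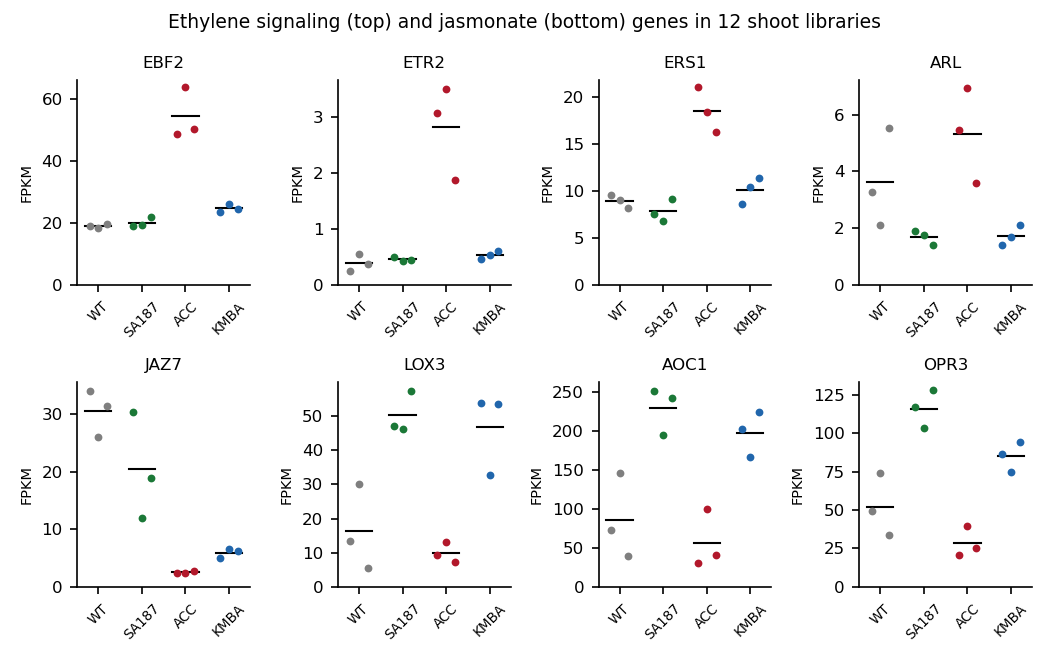
FPKM (y axis, from 0) of 8 genes in the 12 shoot libraries, grouped on the x axis as WT, SA187, ACC and KMBA, with a point for each library and a bar at the group mean. In the upper row the ACC points of EBF2, ETR2 and ERS1 lie above all others, and in the lower row the ACC points of JAZ7, LOX3, AOC1 and OPR3 lie below all SA187 points.

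The windows ahead of the jasmonate genes were searched for the G-box, CACGTG, which reads the same on both strands and is known to be bound by the jasmonate activator MYC2. Of the 12 called jasmonate genes of both lists, 3 hold it within the 250 bases before the annotated start of the gene (TAIR10.1 genome and annotation, from RefSeq). Over all tested genes 7.33% of 15588 such windows hold it, and the share was 15.8% (18 of 114) for genes lower with ACC and 7.93% (13 of 164) for genes higher with ACC. In jasmonate synthesis genes 1 of 7 called members hold it against 2 of 13 tested, and in signaling and response genes 2 of 5 against 3 of 19. The windows of LOX3, AOC1 and OPR3 hold none. A match is a description of the letters, not of a bound site, and a role of MYC2 was not tested. The windows of the 3 genes, JAZ7 at chr2:14572780-14573029 (plus strand), AOS at chr5:17099596-17099845 (minus strand) and JAZ2 at chr1:28150447-28150696 (minus strand), are given 5′ to 3′ towards the gene with the G-box in capitals.
JAZ7: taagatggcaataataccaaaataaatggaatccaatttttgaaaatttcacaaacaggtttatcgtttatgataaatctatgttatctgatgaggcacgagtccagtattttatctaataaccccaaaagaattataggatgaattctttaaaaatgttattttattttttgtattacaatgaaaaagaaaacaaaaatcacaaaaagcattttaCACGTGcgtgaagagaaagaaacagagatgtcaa
AOS: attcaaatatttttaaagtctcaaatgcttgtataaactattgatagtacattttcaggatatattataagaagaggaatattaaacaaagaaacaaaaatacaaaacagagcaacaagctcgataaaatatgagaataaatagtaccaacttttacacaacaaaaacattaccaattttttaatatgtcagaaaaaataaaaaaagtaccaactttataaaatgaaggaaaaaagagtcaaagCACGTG
JAZ2: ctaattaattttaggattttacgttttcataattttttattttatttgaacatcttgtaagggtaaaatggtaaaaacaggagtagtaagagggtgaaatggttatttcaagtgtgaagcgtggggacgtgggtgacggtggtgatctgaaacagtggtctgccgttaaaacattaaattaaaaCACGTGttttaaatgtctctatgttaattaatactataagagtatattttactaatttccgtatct
The match began 34 bases before the start in JAZ7, 66 in JAZ2 and 6 in AOS.

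Aliphatic glucosinolate genes, which build the methionine-derived glucosinolates, were lower in ACC than in SA187 shoots. Of 26 tested members 5 were lower and 0 higher, 16 passed the adjusted p and were all lower (3.01% of all genes did so), and 24 of 26 differences were below 0, with a median of -0.68. GSTF11 (AT3G03190), a glutathione transferase gene assigned to the core pathway, was at 7.62, 5.47 and 6.30 FPKM with SA187, 1.95, 1.37 and 1.95 FPKM with ACC and 9.23, 10.5 and 10.5 FPKM in WT (log2 -1.44, SE 0.13, adjusted p = 0.000217, and in pool 1 -1.33, adjusted p = 0.0229). Each ACC library was below every other shoot library, and the WT libraries were the highest. IPMI_SSU3 (AT3G58990), a subunit gene of the isomerase that lengthens the methionine side chain, was at 30.3, 23.0 and 27.1 FPKM with SA187 and 11.1, 8.57 and 6.71 FPKM with ACC (log2 -1.52, SE 0.18, adjusted p = 0.000741, and in pool 1 -1.19, adjusted p = 0.0595).

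Further members of the list, among them side-chain enzymes, were also lower with ACC than with SA187. FMO GS-OX3 (AT1G62560), of the S-oxygenase genes, was at 7.09, 4.94 and 5.43 FPKM with SA187 and 2.45, 2.17 and 2.05 FPKM with ACC (log2 -1.07, SE 0.13, adjusted p = 0.000813, and in pool 1 -0.97, adjusted p = 0.0774). FMO GS-OX1 (AT1G65860) was at 5.42, 4.57 and 4.77 FPKM and 2.37, 1.83 and 1.54 FPKM (log2 -1.03, SE 0.13, adjusted p = 0.00132, and in pool 1 -0.81, adjusted p = 0.103). CYP79F1 (AT1G16410), the first enzyme gene of the core pathway and named after its values were seen, was at 37.1, 33.5 and 40.8 FPKM with SA187 and 17.7, 10.7 and 7.14 FPKM with ACC (log2 -1.65, SE 0.27, adjusted p = 0.00505, and in pool 1 -1.02, adjusted p = 0.173). The chain-elongation gene BCAT4 (AT3G19710) was at 7.91, 7.81 and 7.55 FPKM and 4.70, 4.20 and 2.95 FPKM, under 2-fold (log2 -0.84, SE 0.14, adjusted p = 0.00451, and in pool 1 -0.62, adjusted p = 0.144). In CYP79F1 and BCAT4 the ACC replicate of pool 1 was the highest of the ACC libraries. Within pool 1 the list had 1 called member, 1 gene past the adjusted p and a median of -0.44, and with the pool as a term 4 and 8 with a median of -0.59. Without SA187 replicate 1 the called members were 3 and those past the adjusted p 10, without ACC replicate 3 they were 4 and 10, and without ACC replicate 1 they were 8 and 14.

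GTR1 (AT3G47960), which encodes a glucosinolate importer and was chosen from outside the list after its values were seen, was at 55.3, 58.0 and 42.8 FPKM with SA187, 15.3, 17.5 and 14.1 FPKM with ACC and 93.3, 74.1 and 53.7 FPKM in WT (log2 -1.67, SE 0.19, adjusted p = 0.000710, and in pool 1 -1.69, adjusted p = 0.0383). In the indolic branch, made from tryptophan, 2 of 17 genes were lower and 1 higher. CYP79B3 (AT2G22330), for its first step, was at 26.1, 26.6 and 31.3 FPKM with SA187 and 12.2, 13.2 and 8.03 FPKM with ACC (log2 -1.28, SE 0.24, adjusted p = 0.00876, and in pool 1 -1.13, adjusted p = 0.178). GGP1 (AT4G30530), shared by both branches, was at 54.0, 57.7 and 72.1 FPKM and 30.7, 33.9 and 26.2 FPKM (log2 -0.99, SE 0.17, adjusted p = 0.00607, and in pool 1 -0.96, adjusted p = 0.113). MYB34 (AT5G60890), a regulator gene of the indolic branch, was at 14.3, 10.3 and 8.81 FPKM and 6.10, 3.80 and 4.19 FPKM (log2 -1.09, SE 0.27, adjusted p = 0.0304, and in pool 1 -0.75, adjusted p = 0.437). The methyltransferase gene IGMT2, chosen after its values were seen, was higher (log2 1.64), though near copies make its level uncertain and the call was lost without ACC replicate 1 or 2 or SA187 replicate 1 or 2. Leaving aside the fit within pool 1, the lower members were 1 with the pool as a term, with no filter or without ACC replicate 3. They were 3 without ACC replicate 1 and with median-ratio scaling. The median of the indolic list moved from -0.18 to -0.30 with that scaling and to 0.03 with the pool as a term. Within pool 1 it was 0.12, with 9 of 17 differences above 0. Among 9 genes of myrosinases and their partners 1 was lower, MBP1 (AT1G52040), at 23.7, 25.2 and 13.9 FPKM with SA187, 7.94, 5.75 and 9.21 FPKM with ACC and 63.0, 52.6 and 51.9 FPKM in WT (log2 -1.32, SE 0.21, adjusted p = 0.00383, and in pool 1 -1.25, adjusted p = 0.0987).

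Sulfur genes were lower with ACC in part. Of 27 tested genes of sulfate uptake and assimilation 3 were lower and 0 higher, while 6 passed the adjusted p lower and 2 higher, and the median was -0.05. Of the APS kinase genes, whose products make the sulfate donor for glucosinolates, APK1 and APK2 passed the adjusted p lower. APK2 (AT4G39940) was at 25.7, 22.3 and 25.0 FPKM with SA187 and 13.4, 11.8 and 9.96 FPKM with ACC (log2 -0.999, SE 0.12, adjusted p = 0.000770, and in pool 1 -0.81), at the fold limit and not called. APK1 (AT2G14750) was at 12.3, 10.7 and 13.1 FPKM and 6.29, 5.38 and 4.34 FPKM (log2 -1.05, SE 0.14, adjusted p = 0.00175, and in pool 1 -0.83, adjusted p = 0.0679). FRY1 (AT5G63980), whose phosphatase clears the by-product of sulfate transfer, was at 9.04, 7.88 and 7.91 FPKM with SA187 and 5.05, 4.67 and 4.01 FPKM with ACC (log2 -0.74, SE 0.11, adjusted p = 0.00327, and in pool 1 -0.61, adjusted p = 0.123). For all of these WT lay at or near the SA187 level, with APK1 at 11.5, 11.2 and 12.5 FPKM, and no ACC library reached a SA187 library.

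Named after their values were seen, the ATP sulfurylase gene APS3 (AT4G14680) was at 26.2, 24.1 and 29.3 FPKM with SA187 and 11.3, 17.5 and 7.06 FPKM with ACC (log2 -1.16), and the APS reductase gene APR1 (AT4G04610) at 60.1, 57.6 and 62.8 FPKM and 21.5, 44.8 and 21.1 FPKM (log2 -1.11). APR2 (AT1G62180), the main reductase gene by level, was at 149, 143 and 144 FPKM and 67.2, 118 and 95.5 FPKM, under 2-fold (log2 -0.67, SE 0.19, adjusted p = 0.0477, and in pool 1 -1.10, adjusted p = 0.0630). Not every step went down. SULTR3;3 (AT1G23090), of the sulfate transporter family, was at 2.31, 2.54 and 2.60 FPKM with SA187 and 6.32, 5.75 and 5.48 FPKM with ACC. It was higher, and just under 2-fold on the scale tested (log2 0.97, SE 0.11, adjusted p = 0.000726, and in pool 1 1.07). The transporter gene SULTR1;2 (AT1G78000) was at 4.30, 2.87 and 4.71 FPKM and 3.47, 5.26 and 5.65 FPKM with overlapping libraries, and sulfite reductase SIR1 (AT5G04590) at 71.2, 63.8 and 73.2 and 50.8, 67.1 and 60.8 FPKM, also overlapping.

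Genes that mark sulfur shortage had a median of -0.87, with 2 of 8 lower and 7 of 8 differences below 0. LSU2 (AT5G24660) was at 84.2, 63.0 and 64.2 FPKM with SA187 and 20.5, 48.4 and 28.3 FPKM with ACC (log2 -1.17, SE 0.27, adjusted p = 0.0222, and in pool 1 -1.72, adjusted p = 0.0384). WT was higher at 122, 99.1 and 169.9 FPKM, and KMBA at 44.4, 36.2 and 43.2 FPKM overlapped ACC. LSU3 (AT3G49570) was at 24.6, 20.8 and 36.0 FPKM with SA187, 2.42, 17.0 and 7.48 FPKM with ACC and 33.0, 28.1 and 71.1 FPKM in WT (log2 -1.77, SE 0.50, adjusted p = 0.0477, and in pool 1 -3.00, adjusted p = 0.0286). In these genes ACC replicate 2 was the nearest to SA187, and WT had the highest mean. SDI1 (AT5G48850), a repressor gene of glucosinolate synthesis, was at 7.82, 7.52 and 8.77 FPKM with SA187 and 1.44, 6.67 and 3.38 FPKM with ACC and did not pass (log2 -1.06, SE 0.34, adjusted p = 0.0756). LSU1 (AT3G49580), at 14.5, 12.4 and 18.8 and 2.95, 8.95 and 8.63 FPKM, did not either (log2 -1.15, adjusted p = 0.143). The calls of this list were lost without ACC replicate 1 or 3 or SA187 replicate 1 or 2 (0 of 8 each time), rose to 4 without ACC replicate 2, and were 3 within pool 1. The assimilation calls were 0 lower and 1 higher without ACC replicate 3, and 1 lower and 0 higher with the pool as a term.

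**Figure D3:**
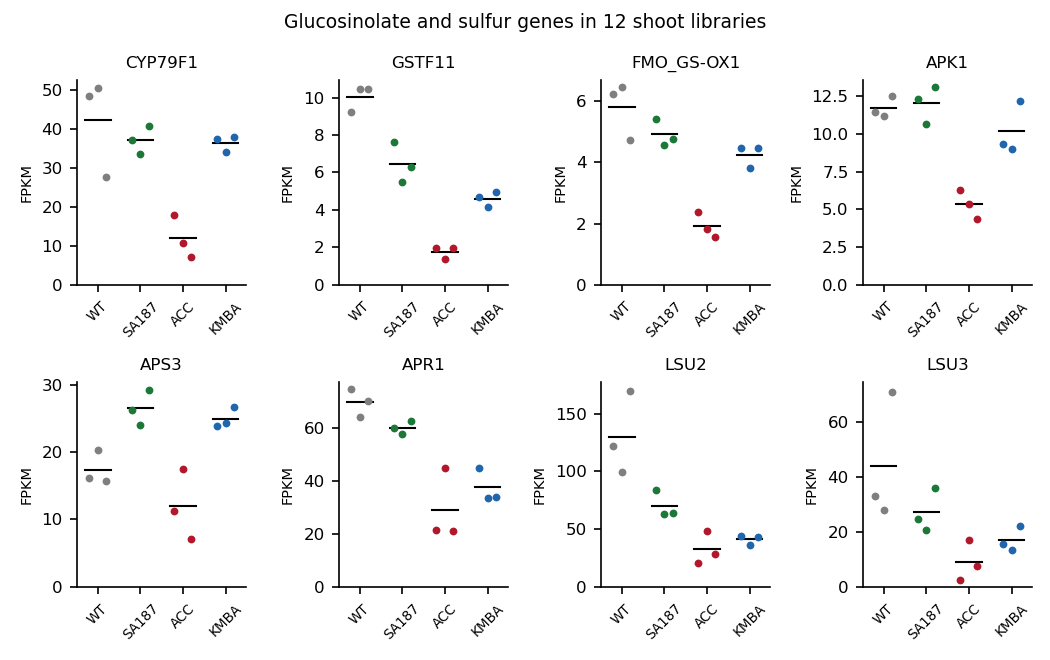
FPKM (y axis, from 0) of 8 glucosinolate and sulfur genes in the 12 shoot libraries, by group on the x axis, with a point for each library and a bar at the group mean. All 3 ACC points lie below all 3 SA187 points in each panel, while the order of WT and SA187 differs between panels.

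A further set of 21 tested genes is discussed by the study, in part for their change in these same libraries, so their count is no independent evidence. Of these 3 were lower with ACC (APK1, LSU2 and LSU3), 0 were higher, and 8 passed the adjusted p lower and 1 higher, EIL1. CHAT (AT3G03480), which makes a leaf-alcohol acetate, was at 4.08, 5.39 and 5.16 FPKM with SA187 and 1.57, 1.73 and 2.83 FPKM with ACC (log2 -0.97, SE 0.18, adjusted p = 0.00830, and in pool 1 -1.19, adjusted p = 0.0694). The remaining ones did not pass: SLIM1 (log2 0.26), LSU4 (0.18), GGCT2;1 (-0.15), LQY1 (-0.28), XTH6 (-0.21) and DCF (-0.12), each with an adjusted p of at least 0.191. The lower calls of this set were 1 without ACC replicate 3 or SA187 replicate 3, and 5 without ACC replicate 2.

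Several of the 10 largest rises had WT libraries far apart. PR2 (AT3G57260), a pathogenesis-related glucanase gene, was at 1.19, 0.437 and 0.472 FPKM with SA187 and 29.7, 26.4 and 25.2 FPKM with ACC (log2 4.07, SE 1.15, adjusted p = 0.0477, and in pool 1 4.20, adjusted p = 0.283). Its WT libraries were at 22.7, 0.524 and 93.9 FPKM, so that WT replicates 1 and 3 matched or exceeded ACC and WT replicate 2 lay with SA187, and the call was lost in 12 of 18 alternatives. The calcium sensor gene CML37 (AT5G42380) was at 0.706, 0.550 and 0.400 FPKM with SA187, 15.7, 8.47 and 26.9 FPKM with ACC and 6.75, 0.282 and 22.8 FPKM in WT (log2 3.41, SE 0.79, adjusted p = 0.0227, and in pool 1 3.44, adjusted p = 0.233). AT4G39670, of the glycolipid transfer family, was at 0.376, 0.368 and 0.347 FPKM, 12.6, 7.44 and 15.0 FPKM and 4.74, 0.261 and 13.1 FPKM in the same groups (log2 3.17, SE 0.68, adjusted p = 0.0156, and in pool 1 3.32, adjusted p = 0.197). For CML37 and AT4G39670 WT replicate 2 was likewise far below WT replicates 1 and 3. Such a split was present, as WT replicates 1 and 3 both at least 2 times replicate 2, in 41 of the 164 genes higher with ACC (25%), in 1 of the 115 lower (0.87%) and in 3.34% of all tested genes.

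AT5G10760, an aspartyl protease gene, was at 0.993, 1.11 and 1.46 FPKM with SA187 and 18.0, 14.9 and 20.1 FPKM with ACC (log2 3.09, SE 0.77, adjusted p = 0.0298, and in pool 1 3.13, adjusted p = 0.236). AT2G18193, an ATPase gene, was at 1.23, 1.26 and 2.46 FPKM and 16.1, 23.6 and 18.5 FPKM (log2 2.96, SE 0.72, adjusted p = 0.0273, and in pool 1 2.72, adjusted p = 0.303). AT5G55150, of an F-box family, was at 0.215, 0.249 and 0.287 FPKM and 6.64, 10.5 and 11.7 FPKM (log2 3.05, SE 0.86, adjusted p = 0.0460, and in pool 1 2.61, adjusted p = 0.401). These had the WT split too. YLS9 (AT2G35980), of the LEA hydroxyproline-rich family, was at 0.512, 0.135 and 0.440 FPKM with SA187 and 8.59, 3.33 and 10.0 FPKM with ACC, with WT at 1.19, 0.236 and 4.15 FPKM (log2 2.51, SE 0.48, adjusted p = 0.00940, and in pool 1 2.83, adjusted p = 0.0993). Over the salicylate list 2 of 20 genes were higher, PR2 and GRX480 (AT1G28480), and 1 lower. With the pool as a term, or without ACC replicate 1, ACC replicate 3 or any 1 SA187 library, 0 were higher. WRKY18 (AT4G31800), the lower one and a defense transcription factor gene, was at 90.7, 78.2 and 76.2 FPKM with SA187, 22.4, 34.9 and 34.8 FPKM with ACC and 159.7, 100.3 and 147 FPKM in WT (log2 -1.41, SE 0.22, adjusted p = 0.00408, and in pool 1 -1.82, adjusted p = 0.0357).

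In the list of pattern-triggered immunity 2 of 26 tested genes were higher, beside 1.04% of all tested genes, and 0 lower. The list median was 0.35 against 0.09 over all genes, with 20 differences above 0 and 6 below. After subtraction of the length and GC trend it was 0.17 (against -0.001 over all genes), with 17 above 0 and 9 below. It was 0.18 with a filter at 5 FPKM and 0.42 within pool 1. FLS2 (AT5G46330), the receptor of bacterial flagellin, was at 6.33, 5.48 and 5.81 FPKM in SA187 and 21.6, 20.5 and 18.6 FPKM in ACC shoots (log2 1.63, SE 0.13, adjusted p = 0.000157, and in pool 1 1.72, adjusted p = 0.0166). WT at 4.68, 6.04 and 4.33 FPKM and KMBA at 8.40, 10.4 and 8.11 FPKM were below every ACC library, and the call held under all 18 alternatives. RLP23 (AT2G32680), which senses a peptide of microbial origin, was at 0.412, 0.381 and 0.345 FPKM with SA187 and 7.63, 5.77 and 6.60 FPKM with ACC, with WT at 3.18, 0.178 and 6.11 FPKM (log2 2.47, SE 0.52, adjusted p = 0.0138, and in pool 1 2.65, adjusted p = 0.156). LYK4 (AT2G23770), a chitin receptor gene, was at 1.67, 1.65 and 2.79 FPKM and 4.55, 3.95 and 3.74 FPKM, under 2-fold on the scale tested (log2 0.76, SE 0.15, adjusted p = 0.0123, and in pool 1 0.89). The WT split was present in RLP23. The number higher was 1 with the pool as a term, without ACC replicate 1 or without SA187 replicate 1. It was 4 without the WT libraries in the fit.

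SLAH2 (AT4G27970), an anion channel gene, and AZI1 (AT4G12470), for a lipid-transfer-like protein that primes systemic immunity, were also among the largest rises. SLAH2 was at 0.892, 0.809 and 1.22 FPKM with SA187, 20.3, 9.10 and 17.2 FPKM with ACC and 3.28, 2.29 and 5.15 FPKM in WT (log2 3.00, SE 0.31, adjusted p = 0.000436, and in pool 1 3.44, adjusted p = 0.0166). AZI1 was at 0.0993, 0.775 and 0.338 FPKM with SA187 and 9.19, 9.52 and 7.89 FPKM with ACC (log2 2.84, SE 0.36, adjusted p = 0.00115, and in pool 1 2.89, adjusted p = 0.0229). WT at 2.70, 1.20 and 3.19 FPKM and KMBA at 0.681, 2.00 and 4.40 FPKM were above SA187 on average and below every ACC library. Both were called in all 18 alternatives. Its neighbour EARLI1 (AT4G12480) on chromosome 4 was at 0.466, 0.731 and 0.610 FPKM and 6.66, 6.02 and 8.65 FPKM (log2 2.33, SE 0.58, adjusted p = 0.0300, and in pool 1 2.26, adjusted p = 0.264), a call lost in 10 of 18 alternatives, among them all that left out 1 ACC or SA187 library. Since root markers were somewhat higher in ACC shoots, root levels bear on these genes. The ACC shoot mean was 1.06% of the ACC root mean for PYK10, 1.27% for EARLI1, 5.13% for AZI1 and 125% for SLAH2, and the part of root material in these differences was not tested.

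Dehydration and cold genes were higher in part, with 5 of 17 higher and 1 lower, beside 1.04% and 0.731% of all tested genes. The list as a whole was not shifted in sign, with 10 differences above 0 and 7 below, beside 63.8% of all tested genes above 0. Its median of 0.62 was -0.01 with a filter at 5 FPKM (14 tested) and 0.71 without ACC replicate 2. It was 0.27 with the pool as a term and 0.09 within pool 1, where the median of all genes was 0.10. LTI30 (AT3G50970), a dehydrin gene, was at 8.12, 9.21 and 6.84 FPKM with SA187 and 50.5, 45.2 and 95.1 FPKM with ACC (log2 2.76, SE 0.50, adjusted p = 0.00702, and in pool 1 2.52, adjusted p = 0.156). KMBA stayed low at 11.5, 11.3 and 17.2 FPKM and WT was spread out at 25.3, 11.2 and 72.8 FPKM. RD29A (AT5G52310), a classic drought and cold gene, was at 58.2, 44.2 and 55.7 FPKM with SA187 and 133, 105 and 194 FPKM with ACC (log2 1.40, SE 0.25, adjusted p = 0.00712, and in pool 1 1.33, adjusted p = 0.0931). In both ACC replicate 3 was the highest of the ACC libraries, and the SA187 libraries were the lower and tighter group. RD20 (AT2G33380), a caleosin gene, went down, from 11.8, 10.2 and 12.3 FPKM with SA187 to 3.54, 3.42 and 3.82 FPKM with ACC (log2 -1.43, SE 0.21, adjusted p = 0.00278, and in pool 1 -1.45, adjusted p = 0.0357). WT at 5.73, 4.94 and 5.28 FPKM lay between. DREB2B (AT3G11020), of the dehydration-response factors, was at 1.52, 1.32 and 1.58 FPKM and 2.64, 2.34 and 3.52 FPKM (log2 0.62, SE 0.14, adjusted p = 0.0179, and in pool 1 0.56, adjusted p = 0.224). Within pool 1 and with the pool as a term 0 members were higher, and RD20 stayed lower in both. The higher members were 2 without ACC replicate 1 or 3 or SA187 replicate 1 or 2. Of 14 abscisic acid genes 0 were called.

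The cell wall list gained and lost members. EXPA1 (AT1G69530), an expansin gene for wall loosening, was at 17.4, 16.5 and 15.7 FPKM with SA187 and 67.2, 50.2 and 61.1 FPKM with ACC (log2 1.78, SE 0.12, adjusted p = 5.90e-05, and in pool 1 1.96, adjusted p = 0.00497). WT at 23.4, 24.0 and 24.6 FPKM and KMBA at 21.2, 24.9 and 23.9 FPKM were a little above SA187 and far below ACC. XTH19 (AT4G30290), of the xyloglucan-remodelling family, was at 4.08, 3.08 and 3.35 FPKM with SA187, 22.5, 20.5 and 25.1 FPKM with ACC and 13.5, 7.21 and 16.7 FPKM in WT (log2 2.40, SE 0.25, adjusted p = 0.000436, and in pool 1 2.39, adjusted p = 0.0319). XTH9 (AT4G03210), of the same family, went the other way, at 130.0, 110.2 and 115 FPKM with SA187, 49.8, 53.4 and 46.0 FPKM with ACC and 136, 161 and 176 FPKM in WT (log2 -1.23, SE 0.12, adjusted p = 0.000362, and in pool 1 -1.23, adjusted p = 0.0311). These 3 kept their calls under all 18 alternatives, and in total 2 of 19 members were higher and 2 lower. The other lower member, XTH25, lost its call within pool 1 and without ACC replicate 1 or 3 or SA187 replicate 1 or 3.

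**Figure D4:**
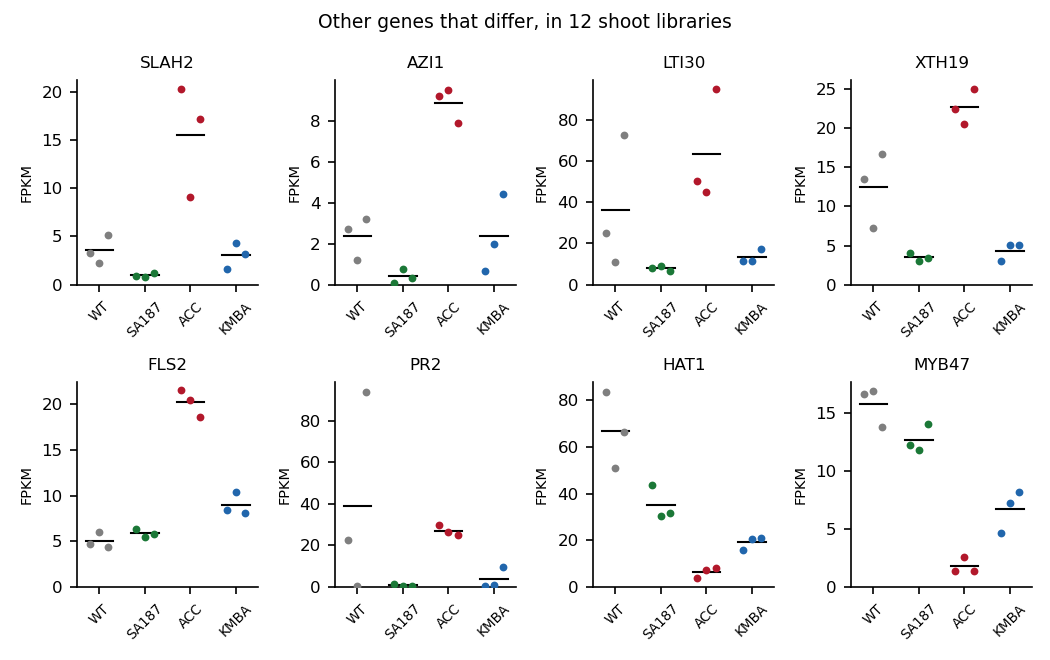
FPKM (y axis, from 0) of 8 further genes in the 12 shoot libraries, by group on the x axis, with a point for each library and a bar at the group mean. SLAH2, AZI1, XTH19 and FLS2 are higher with ACC than in every other shoot library, PR2 shows WT replicates far apart, and HAT1 and MYB47 are lowest with ACC.

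Genes outside the jasmonate lists were also among the 10 largest falls. HAT1 (AT4G17460), an HD-ZIP factor gene of the shade response, was at 43.5, 30.3 and 31.8 FPKM with SA187 and 3.59, 7.42 and 7.94 FPKM with ACC (log2 -2.35, SE 0.26, adjusted p = 0.000523, and in pool 1 -2.96, adjusted p = 0.00895). WT held 83.8, 51.0 and 66.3 FPKM and KMBA 16.0, 20.6 and 20.9 FPKM. The groups formed a ladder for this gene, with ACC lowest, then KMBA, SA187 and WT. MYB47 (AT1G18710), a MYB factor gene, was at 12.2, 11.8 and 14.1 FPKM with SA187 and 1.35, 2.60 and 1.38 FPKM with ACC (log2 -2.33, SE 0.20, adjusted p = 0.000157, and in pool 1 -2.54, adjusted p = 0.00679). Its KMBA libraries, at 4.64, 7.22 and 8.21 FPKM, were between, and WT at 16.6, 16.8 and 13.8 FPKM was near SA187. AT5G19240, for a GPI-anchored glycoprotein, was at 129, 70.6 and 70.8 FPKM with SA187, 22.8, 17.6 and 19.2 FPKM with ACC and 203, 138 and 141 FPKM in WT (log2 -2.07, SE 0.23, adjusted p = 0.000523, and in pool 1 -1.88, adjusted p = 0.0502). ACC was thus below both WT and SA187 in all 3 genes.

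Another pattern, with WT near ACC or between, was seen in the thionin gene AT1G66100. It was at 22.2, 12.3 and 42.4 FPKM with SA187 and 2.17, 5.32 and 2.63 FPKM with ACC (log2 -2.51, SE 0.47, adjusted p = 0.00828, and in pool 1 -2.90, adjusted p = 0.0861). KMBA at 15.7, 17.9 and 30.9 FPKM lay within the SA187 range, and WT at 4.35, 9.58 and 2.49 FPKM overlapped ACC and stayed below SA187. FAMT (AT3G44860), a methyltransferase gene, was at 47.9, 36.6 and 50.0 FPKM with SA187, 8.14, 12.7 and 6.87 FPKM with ACC and 20.5, 31.7 and 12.5 FPKM in WT (log2 -2.19, SE 0.29, adjusted p = 0.00129, and in pool 1 -2.31, adjusted p = 0.0384). NUDT8 (AT5G47240), of the nudix hydrolases, was at 15.4, 10.4 and 24.6 FPKM with SA187 and 1.52, 4.71 and 2.52 FPKM with ACC (log2 -2.18, SE 0.35, adjusted p = 0.00421, and in pool 1 -2.74, adjusted p = 0.0228). For FAMT no library of WT reached the SA187 range, and for NUDT8 the ACC and SA187 libraries did not overlap.

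Photosynthesis genes shifted little but mostly in 1 direction. Of 26 photosystem and electron transport genes 0 were called and 24 differences were below 0 (median -0.33), and of 17 Rubisco and Calvin cycle genes 0 were called and all 17 were below 0 (median -0.30), beside 36.2% of all tested genes at or below 0. FNR2 (AT1G20020) and CP12-2 (AT3G62410) passed the adjusted p in these lists, at log2 -0.47 and -0.54. The antenna list had a median of 0.02, with 2 of 20 higher, LHCB2.1 (AT2G05100) and CAB2 (AT1G29920). Both calls were lost without any 1 ACC library, without SA187 replicate 1 or 3, with the pool as a term in the model and with no filter. CAB2 was at 73.9, 139 and 105 FPKM with SA187 and 286, 384 and 385 FPKM with ACC (log2 1.76, SE 0.43, adjusted p = 0.0272, and in pool 1 1.47, adjusted p = 0.353). WT spanned 921, 297 and 1275 FPKM, and near-identical copies of this gene can share reads. Summed antenna levels overlapped, from 13426 to 14239 FPKM with ACC and from 12387 to 17374 FPKM with SA187.

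Nitrate genes had 1 member higher and 1 lower of 14. BT2 (AT3G48360), a nitrate-responsive regulator gene, was at 90.6, 64.8 and 92.0 FPKM with SA187, 17.1, 40.2 and 30.7 FPKM with ACC and 127, 96.2 and 160.1 FPKM in WT (log2 -1.52, SE 0.27, adjusted p = 0.00684, and in pool 1 -2.19, adjusted p = 0.0181). NRT1.8 (AT4G21680), a nitrate transporter gene, was at 3.16, 3.18 and 3.07 FPKM with SA187 and 12.6, 8.03 and 14.7 FPKM with ACC (log2 1.59, SE 0.31, adjusted p = 0.0109, and in pool 1 1.71, adjusted p = 0.121). LBD39 (AT4G37540), which represses anthocyanin synthesis and responds to nitrate, was at 51.2, 34.3 and 34.8 FPKM and 14.7, 18.3 and 21.3 FPKM (log2 -1.09, SE 0.24, adjusted p = 0.0170, and in pool 1 -1.36, adjusted p = 0.133). It was the called member of 6 anthocyanin regulators, a call lost with the pool as a term and without ACC replicate 1 or SA187 replicate 1. None of 14 anthocyanin and flavonol synthesis genes was called (median 0.09). Redox genes held DHAR1 (AT1G19570), a dehydroascorbate reductase gene, at 337, 306 and 310.1 FPKM with SA187 and 122, 172 and 150.0 FPKM with ACC (log2 -1.11, SE 0.13, adjusted p = 0.000813, and in pool 1 -1.37, adjusted p = 0.0181), the called gene of 19, though not without ACC replicate 1. GSTU5 (AT2G29450), the called member of 13 glutathione transferase genes, was at 785, 561 and 829.8 FPKM with SA187 and 201, 325 and 212 FPKM with ACC (log2 -1.57, SE 0.21, adjusted p = 0.00140, and in pool 1 -1.82, adjusted p = 0.0181).

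Auxin response had 1 lower gene of 12, IAA6 (AT1G52830) (log2 -1.19, lost within pool 1 and without ACC replicate 1 or SA187 replicate 1), and the shade list 1 of 8, HAT1. No member was called in the lists of methionine and its salvage (22 tested), senescence (15), iron (14, median 0.39), phosphate (6), clock (16), heat shock (14), hypoxia (7), stress zinc fingers (9), aquaporins (16), cell division (8) and sodium and potassium transport (4). The reference genes (9) held no call either, but UBQ10 (AT4G05320) was at 316, 357 and 335 FPKM with SA187 and 668, 521 and 582 FPKM with ACC (log2 0.81, SE 0.19, adjusted p = 0.0239, and in pool 1 0.99, adjusted p = 0.174). These lists tell no difference at the fold of 2 in 3 libraries a group, and they do not show equal levels. Some alternatives called 1 gene of senescence, iron or stress zinc fingers, and the replicate block called 2 of heat shock. Of the 14 iron differences 13 were above 0. The iron median was 0.22 without ACC replicate 1, 0.65 with the pool as a term and 0.80 within pool 1.

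**Figure D5:**
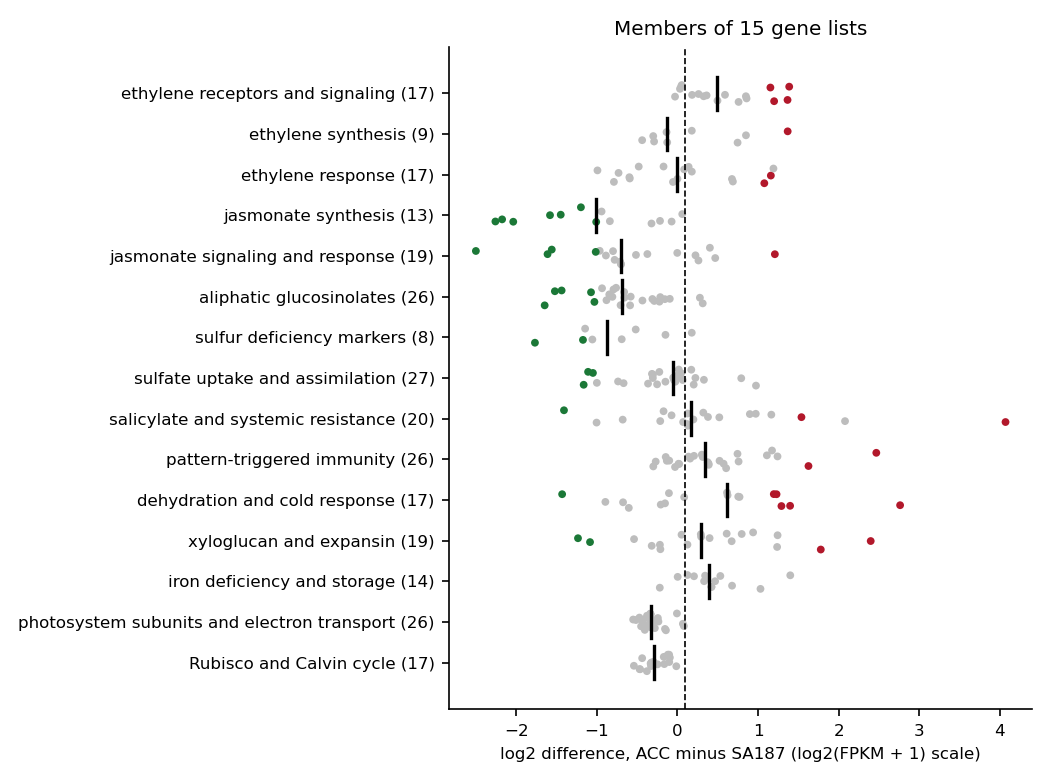
Log2 difference between ACC and SA187 shoots (x axis) for the tested members of 15 gene lists (y axis, number of members in brackets), with a point for each gene, red for called higher, green for called lower and grey for not called. Black bars mark list medians and the dashed line the median of all tested genes at 0.09. The jasmonate synthesis bar is the lowest at -1.01 and the bar of dehydration and cold the highest of the 15 at 0.62. With a filter at 5 FPKM the median of dehydration and cold was -0.01, and that of ethylene receptors and signaling 0.50.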

How the data were processed

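PolyA RNA was sequenced by the authors on a HiSeq 4000, and per the labels reads were checked with FastQC 0.11.5, trimmed with Trimmomatic 0.36 and aligned to TAIR10 with TopHat. The authors used Cufflinks 2.2.1 to obtain FPKM, deposited as 1 table of 27371 genes and 18 libraries, with 3 biological replicates a group. Any scaling between libraries and the use of strand are not given in the sources used here, so overlapping genes are uncertain. Depth is unknown, and precision was taken from the spread between libraries. The p-values refer to the spread among these samples alone.

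The 12 shoot libraries were fitted together, so that the 4 groups share 1 spread estimate. A gene entered the test when 3 or more of them reached 1 FPKM. The scale was log2(FPKM + 1), a pseudocount of 1, and the tool limma 3.58.1 under R 4.3.3, using lmFit and a trended eBayes on the contrast. Tests were 2-sided, and p-values were adjusted by the Benjamini-Hochberg method across the tested genes. A fold on this scale understates the change of low genes. The fit was tested on simulated data. The 41 gene lists were written from general knowledge, and members and lists were chosen with earlier results of these data known. Lists are described by counts and medians, with no set test. The genes named are the 10 strongest rises and 10 strongest falls that were called, averaged 5 FPKM or more in their higher group and had ACC and SA187 libraries apart. The 4 members with the lowest p of each list described and the study's own genes were added. A gene outside this rule is marked as picked after seeing its values. Names and transcript lengths came from the TAIR10.1 assembly of RefSeq (26703 of 27371 IDs matched). Alternatives were a pseudocount of 0.1, no filter, a filter at 5 FPKM, median-ratio scaling, eBayes without trend, fits of fewer groups, the pool as a term, pool 1 alone, the replicate number as a block, subtraction of a trend on length and GC content (lowess, span 0.3) and leaving out each ACC and SA187 library. The root groups were used only for levels, whereas the WT and KMBA shoots also entered the filter and the spread estimate. Without WT libraries in the fit 3162 genes passed the adjusted p alone, against 1446 with them.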

Additional observations from a re-analysis of the deposited data

How the results depend on the processing

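None of the 279 calls changed sign under any of the 18 alternatives, as far as the genes could be tested. The total of 279 (164 higher, 115 lower) became 443 (263 higher, 180 lower) with a pseudocount of 0.1, which widens the fold of genes with low values, and 142 (60 higher, 82 lower) within pool 1, where 1 ACC library was left. With a filter at 5 FPKM, which tested 8466 genes, 103 were higher, and with the pool as a term 102. Leaving out single libraries gave totals from 172 to 283, with 94 to 156 higher and 78 to 137 lower. Of the list genes 59 were called, 31 within pool 1 and between 35 and 60 with 1 library left out. The causes of these changes were not tested. The other alternatives kept the totals within 1.5 times of 279, from 210 (filter at 5 FPKM) to 356 (ACC and SA187 libraries alone), and the same held without WT libraries in the fit (355), with no filter (226), with median-ratio scaling (290), without the trend in eBayes (279) and after subtraction of the length and GC trend (316). That trend differed between the groups: the median log2 difference was 0.32 for the 630 genes with transcripts over 4000 nt and -0.02 for the 538 under 700 nt.

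Replicate numbers are shared by the groups, but nothing in the labels ties equal numbers to a shared batch. Deviations of same-numbered ACC and SA187 libraries from their group means correlated at 0.01, 0.07 and 0.06, and not every library correlated best with its own number, so the numbers were not taken as pairs. With the replicate block 298 genes were called, 184 higher and 114 lower, 277 of them among the 279, and with the block after subtraction of the length and GC trend 333, 189 higher and 144 lower. The list genes called were then 62 and 70. The absence of read numbers limits what can be said of genes at low FPKM, and genes that reached 1 FPKM in fewer than 3 shoot libraries were not tested.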

Other observations

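Gene families outside the lists were counted by their RefSeq product description, for descriptions shared by at least 10 tested genes of which at least 3 were called. These families, and every gene named below, were picked after seeing the values, and the families carry no test. Over all tested genes 1.04% were higher and 0.731% lower with ACC. Since a family needed at least 3 called members to be counted, high counts were set by that choice. SAUR-like genes, small early auxin genes, had 6 of 51 members higher with ACC and 0 lower, with a median log2 difference of 0.14. AT4G38860 was the member with the highest level, at 14.6, 13.7 and 18.3 FPKM with SA187, 40.8, 30.6 and 40.0 FPKM with ACC, 9.39, 10.5 and 11.8 FPKM in WT and 19.0, 16.7 and 21.8 FPKM with KMBA (log2 1.21, SE 0.15, adjusted p = 0.00126, and in pool 1 1.35, adjusted p = 0.0296). The ACC libraries lay above all others for this gene. Receptor like protein genes, to which RLP23 belongs, had 4 of 28 higher and 0 lower with a median of 0.39. RLP33 (AT3G05660) was at 1.69, 1.47 and 1.64 FPKM with SA187, 8.33, 4.67 and 8.01 FPKM with ACC and 2.12, 2.10 and 3.46 FPKM in WT (log2 1.59, SE 0.20, adjusted p = 0.00126, and in pool 1 1.84, adjusted p = 0.0181). In the lipid-transfer and 2S albumin family 6 of 39 were higher and 0 lower (median 0.42), EARLI1 among them.

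Lower with ACC were 3 neighbouring genes on chromosome 2, AT2G43530 (chr2:18070110-18070523), AT2G43535 (chr2:18070960-18071826) and AT2G43550 (chr2:18073305-18073651, all TAIR10.1, plus strand). AT2G43530 was at 82.4, 62.2 and 94.4 FPKM with SA187 and 18.2, 25.4 and 21.5 FPKM with ACC (log2 -1.82, SE 0.24, adjusted p = 0.00129, and in pool 1 -2.05, adjusted p = 0.0396). AT2G43550 was at 72.1, 69.3 and 47.2 FPKM and 24.4, 33.7 and 24.7 FPKM (log2 -1.15, SE 0.17, adjusted p = 0.00248, and in pool 1 -1.30, adjusted p = 0.0476), and AT2G43535 at 23.2, 14.2 and 17.5 FPKM and 7.32, 7.08 and 9.47 FPKM (log2 -1.09, SE 0.19, adjusted p = 0.00577, and in pool 1 -1.19, adjusted p = 0.101). All of them were near the SA187 level in WT, with AT2G43550 at 56.0, 61.8 and 59.8 FPKM. Their transcripts are short (between 252 and 730 nt), and near copies could share reads.

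KCS1 (AT1G01120), which lengthens fatty acids for wax and cuticle, was at 144, 114 and 108 FPKM with SA187, 47.1, 39.6 and 66.9 FPKM with ACC and 144, 134 and 120.1 FPKM in WT (log2 -1.26, SE 0.19, adjusted p = 0.00293, and in pool 1 -1.34, adjusted p = 0.0310). ABCB21 (AT3G62150), an auxin transporter gene, was at 2.17, 2.81 and 2.85 FPKM with SA187, 12.6, 11.6 and 10.9 FPKM with ACC, 1.61, 1.54 and 1.65 FPKM in WT and 4.53, 6.67 and 5.37 FPKM with KMBA (log2 1.82, SE 0.13, adjusted p = 5.90e-05, and in pool 1 1.92, adjusted p = 0.0144). Both were called in all 18 alternatives. EXT3 (AT1G21310), a cell wall extensin gene, was at 12.3, 18.0 and 12.2 FPKM with SA187 and 47.3, 43.8 and 31.5 FPKM with ACC (log2 1.47, SE 0.25, adjusted p = 0.00588, and in pool 1 1.69, adjusted p = 0.0794), and its ACC shoot mean was 0.839% of the ACC root mean, close to the 1.06% of the root marker PYK10. The part of root material in its difference was not tested.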
